A study of Mus musculus with 6 samples.

Results

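The genes described here encode proteins that carry odorant receptors to the cell surface, and proteins named for the same activity: the receptor transporting proteins Rtp1, Rtp2 and Rtp4, the receptor expression enhancing proteins Reep1 to Reep6, and the Golgi protein Gfy (goofy). They were chosen by name, as rows whose platform annotation gives exactly 1 gene symbol, with the probe set of the highest mean taken where a gene has several. Of the 10 listed genes, 9 had such a probe set, among 19937 genes in all. No row carried the symbol Gfy, and its level was not analysed here. RNA came from the olfactory epithelium (septa and turbinates of the nose) of C57BL6 mice on postnatal day 0. The pups were born to crosses of Atf5+/- parents and were either Atf5-/- (knockout) or Atf5+/+ (wild type). There were 3 samples per genotype, every one a pool of 3 pups, and each was hybridised to its own whole-transcript array. Which part of the Atf5 gene was removed, and in which cells, is not given in the labels.

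Odorant receptors fold poorly outside olfactory sensory neurons and tend to stay in the endoplasmic reticulum (ER). Rtp1 and Rtp2 are transmembrane proteins of these neurons that help the receptors leave the ER and reach the surface, where cilia expose them to odorants. Atf5 encodes an ATF/CREB-type transcription factor that is made while a receptor is being chosen, when new receptor protein engages the ER stress pathway. Reep1 was reported with them as an enhancer of receptor expression, the other Reep genes are its relatives, and several Reep proteins are known to bend or tether ER membrane. Setting the knockout against the wild type asks which of these transport genes differ in level in the newborn epithelium without Atf5.

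Rtp1 and Rtp2 fell in the knockout, and the other 7 measured genes did not pass the test. With n = 3 arrays in each genotype, Rtp1 was 2.79-fold lower (95% interval 2.40 to 3.24) and Rtp2 1.75-fold lower (1.5 to 2.05). No Reep gene passed in either direction. Over all 19937 genes, 3.74% passed limma (a linear model fitted across all genes, with Benjamini-Hochberg adjustment) at an adjusted p under 0.05; 3.24% were lower and 0.502% higher in the knockout. The median log2 change was -0.00 over the 9 trafficking genes and 0.01 over all genes. The groups did not overlap for 3 of the 9 genes (Rtp1, Rtp2 and Reep4), against 21.1% of all genes.

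The arrays' medians lay between 8.67 and 8.72 on the log2 scale, and arrays of one genotype correlated at 0.992 to 0.994 over all rows. Atf5 itself was 9.43, 9.44 and 9.50 in the knockout against 10.54, 10.96 and 10.63 in the wild type. Markers of mature olfactory neurons were present in the wild type, with Omp (olfactory marker protein) at 11.63, 11.00 and 11.40. Markers of neighbouring tissue also varied between arrays. The mean of 10 skeletal muscle genes ran from 10.01 to 10.37 in the knockout, against 8.86, 10.08 and 10.01 in the wild type, with 0 of 10 past limma (1 at an unadjusted p under 0.05, 1 higher when wild-type replicate 2 was dropped, and 2 higher in a fit with the replicate number of the sample titles as a block). The wild-type array of replicate 1 stood below the other arrays in this mean, and it had the highest Rtp1, the highest Rtp2 and the highest mean of the mature neuron markers given below. Without it Rtp1 was at a log2 change of -1.40 and Rtp2 at -0.69, and both still passed (limma, adjusted p = 0.00061 and 0.00465). The mean of 6 tooth enamel genes ran from 7.69 to 8.32 in the knockout, and from 8.54 to 9.90 in the wild type. These enamel means did not overlap between the genotypes, and the log2 changes of the 6 genes ran from -2.47 (Enam) to -0.16 (Klk4). Of the 6, 2 (Enam and Amelx) were lower by limma, which is 33.3% against 3.24% of all genes, and 3 with the block. With 1 array left out the count ran from 0 to 4: it was 4 when wild-type replicate 3 was dropped, 1 when knockout replicate 3 was dropped, and 0 when any of the other 4 arrays was. Of 4 sustentacular cell genes and 7 genes of respiratory ciliated cells 0 passed limma, with 1 of each at an unadjusted p under 0.05. With the block 1 sustentacular gene was lower, and 1 was lower without knockout replicate 1. The part of muscle, tooth or other tissue in the changes below was not tested. Levels are log2 values of single probe sets, given in the order of the replicate numbers, and are compared between arrays. Where a level or marker mean is subtracted from another level on the same array, only its difference between arrays is read. The heights of different genes are not comparable.

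Rtp1 stood at 10.32, 10.41 and 10.17 in the knockout arrays and at 11.94, 11.78 and 11.61 in the wild-type arrays. Every knockout array lay more than 1 log2 unit below every wild-type array, and the spread within a genotype was small (SD 0.12 and 0.16, n = 3). The log2 change was -1.48 (SE 0.10, adjusted p = 0.000139 by limma). Rtp2, the closest relative of Rtp1, stood at 9.16, 9.21 and 9.03 in the knockout, and at 10.18, 9.81 and 9.85 in the wild type. Again the groups did not overlap, with the first wild-type array the highest. Its log2 change was -0.81 (SE 0.10, adjusted p = 0.00292 by limma). Both calls were kept without any 1 array, with changes from -1.56 to -1.40 for Rtp1 and from -0.88 to -0.69 for Rtp2.

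**Figure D1:**
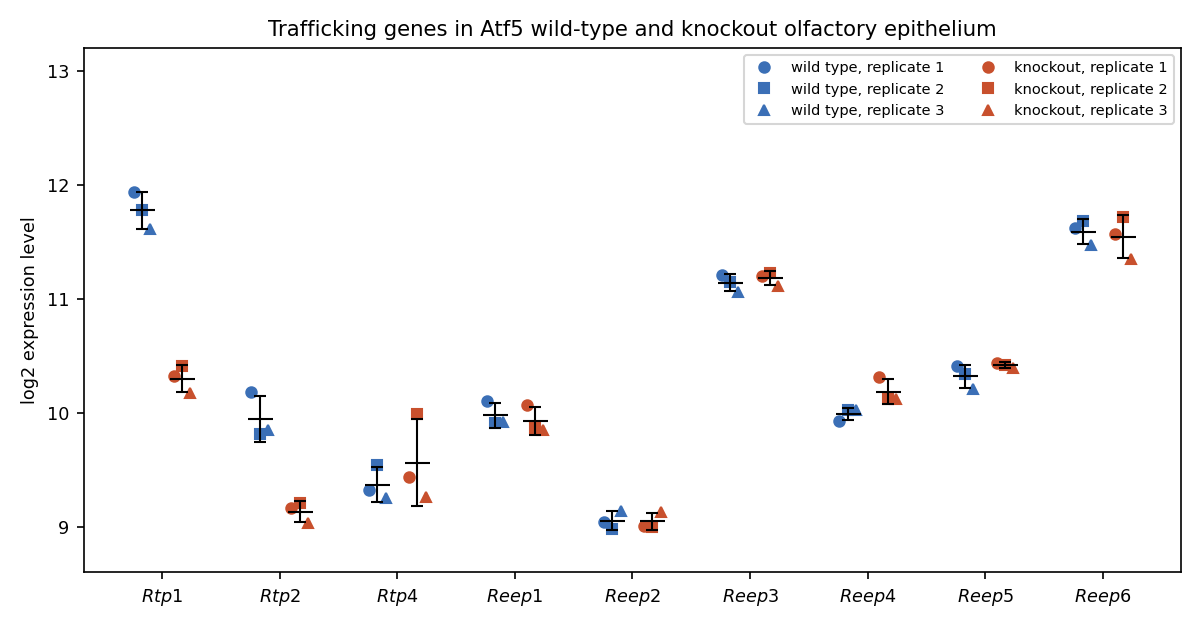
Log2 expression level of the 9 measured trafficking genes on each of 6 arrays (blue, wild type; orange, knockout; marker shape, replicate number), with black bars for the mean and SD of 3 arrays. Knockout and wild-type points are apart for Rtp1 and Rtp2, lie close together without overlap for Reep4, and overlap for the other 6 genes; heights are not comparable between genes.

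As read by 1 probe set for each gene, the change of Rtp1 exceeded that of Rtp2 in size. Whether the 2 probe sets respond equally to a change in RNA was not tested. The log2 level of Rtp1 minus that of Rtp2 was 1.16, 1.20 and 1.13 in the knockout against 1.76, 1.98 and 1.76 in the wild type. This gap was narrower in each of the 3 knockout arrays than in any wild-type array, with a difference of -0.67. An exact permutation test over the 6 arrays (2-sided) gave p = 0.1, the smallest value that 3 against 3 allows.

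Both genes are known from mature olfactory neurons, and markers of these neurons were lower in the same arrays. Of 13 such markers, 12 fell and the remaining 1 (Cngb1, a channel subunit) did not pass. Their mean was 9.15, 9.24 and 9.12 in the knockout against 10.87, 10.56 and 10.69 in the wild type, with a median log2 change of -1.59. In bulk tissue, fewer mature neurons and less RNA per neuron cannot be told apart. Among genes of immature neurons, 4 of 11 fell by limma, and 6 once the block was added. The count was 2 without wild-type replicate 1 or 2 and 3 without knockout replicate 1: Gap43 and Gng8 each lost the call in at least 1 of these fits (highest adjusted p = 0.062 and 0.1, limma). Of 6 neuronal precursor genes 0 passed (limma; 1 at an unadjusted p under 0.05, and 0 with the replicate number as a block).

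Set against the mean of the 13 markers in the same array, Rtp1 overlapped between the genotypes. Its level minus that mean was 1.17, 1.17 and 1.05 in the knockout against 1.07, 1.22 and 0.92 in the wild type. The difference was 0.06 (95% interval -0.21 to 0.32 from an ordinary fit per gene; exact permutation p = 0.7). Rtp2 did not overlap, with 0.01, -0.04 and -0.09 in the knockout against -0.69, -0.75 and -0.84 in the wild type. Rtp2 therefore lost less than the marker mean, by 0.73 (0.59 to 0.86), with exact permutation p = 0.1. The log2 changes of the markers themselves ran from -2.74 (S100a5) to -0.21 (Cngb1). Adcy3 (-0.74), Slc17a6 (-0.70), Pde1c (-0.52) and Cngb1 changed less than Rtp2 (-0.81), and the other markers changed more. The intervals take the marker mean as given and leave out this spread between markers. In the moderated limma fit of such differences, 8 of the 9 trafficking genes passed, all but Rtp1, but so did 99.9% of all genes. The ordinary fit also passed 8 of the 9, and 99.6% of all genes. The marker mean subtracted from each gene is itself lower in the knockout (9.17 against 10.71). A gene whose level does not change therefore stands higher against it. The interval for Rtp1 is wide enough to hold moderate differences in either direction, and these values rest on the 13 markers chosen.

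The genes whose profile over the 6 arrays was most like that of Rtp1 were Cntn4 (an adhesion molecule), Stom (a stomatin) and Stxbp5l (a syntaxin-binding protein). Likeness was measured as the root-mean-square difference between log2 profiles after each was centred on its own mean, which was 0.0643, 0.0875 and 0.11 in that order. Stom changed by -1.61 and Cntn4 by -1.49 on the log2 scale. For Rtp2 the nearest profiles were those of the odorant receptor gene Olfr943 (0.0483), Olfm1 (olfactomedin, 0.049) and the transcript Gm36028 (0.0506). Olfr943 stood at 7.70, 7.78 and 7.51 in the knockout, and at 8.61, 8.28 and 8.30 in the wild type, so that it changed by -0.73 on the log2 scale. These likenesses rest on 6 arrays and mostly on the gap between genotypes.

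Rtp4 lies between Rtp1 and Rtp2 on mouse chromosome 16 and is best known as an interferon-induced gene. It stood at 9.44, 9.99 and 9.26 in the knockout, and at 9.32, 9.54 and 9.25 in the wild type. The groups overlapped, and in each genotype the second array was the highest. The log2 change was 0.19 (SE 0.17, adjusted p = 0.643 by limma), and -0.02 without the second knockout array. The mean of 20 interferon-induced genes was likewise highest in the second arrays, at 8.89 in the knockout and 8.84 in the wild type, against 8.70 to 8.74 in the other 4. Of these 20 genes 0 passed limma, 1 was at an unadjusted p under 0.05 (Ifit1), and their median change was 0.05. With the replicate number as a block 1 passed: Ifit1 at -0.27 (adjusted p = 0.0433 by limma with the block, 0.28 without it). Ifit2, another gene of the list, was at 0.11. Of 9 macrophage markers 0 passed by either fit (4 at an unadjusted p under 0.05), and their mean ran from 9.29 to 9.45 in the knockout and from 9.21 to 9.22 in the wild type; their part in the values of Rtp4 was not tested.

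**Figure D2:**
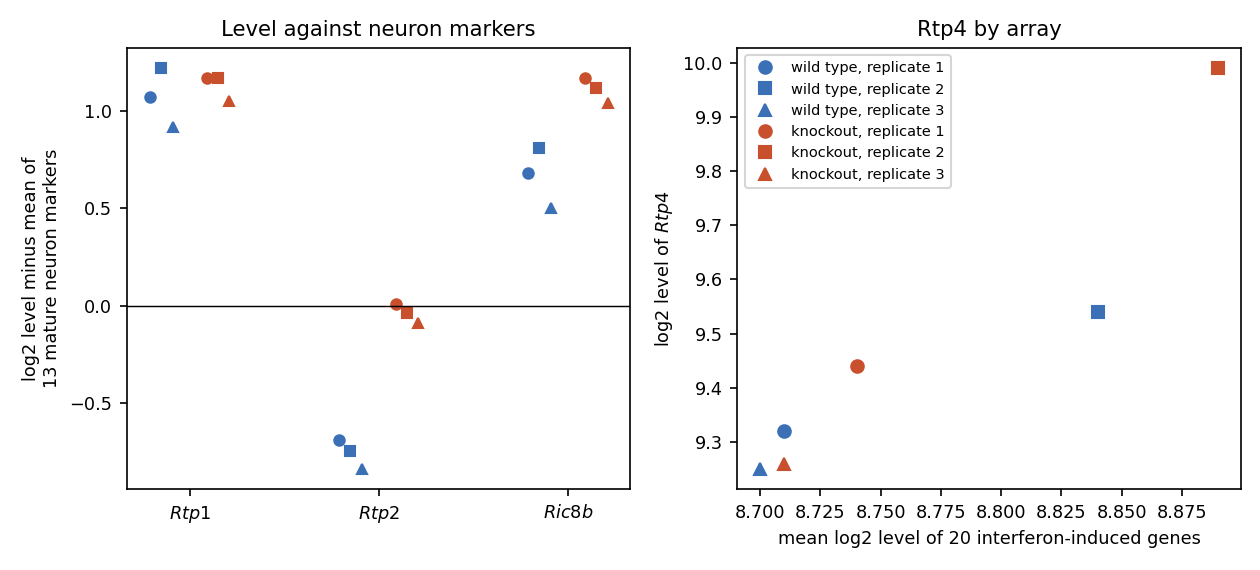
Left, log2 level of Rtp1, Rtp2 and Ric8b on each array minus the mean of 13 mature neuron markers on that array. Rtp1 overlaps between genotypes, while Rtp2 and Ric8b sit higher in the knockout. The marker mean is itself lower in the knockout, so a gene whose level does not change also sits higher. Right, log2 level of Rtp4 against the mean log2 level of 20 interferon-induced genes, 1 point per array (blue, wild type; orange, knockout; shape, replicate number); both squares (replicate 2) are to the upper right.

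No neighbour of the Rtp genes on the chromosome passed the test. In the gene order of the mouse reference GRCm38.p6, the measured protein-coding genes between Rtp1 and Rtp2 are Masp1 (a complement protease), Rtp4 and Sst (the neuropeptide somatostatin). Masp1 was at 0.09 and Sst at -0.03 (log2 change). With the 3 nearest measured genes on each side (Rfc4, Adipoq and St6gal1; Bcl6, Lpp and Tprg), the 8 neighbours ranged from -0.09 to 0.27. By limma 0 of these 8 passed (0 at an unadjusted p under 0.05; 0 with the replicate block, where the lowest adjusted p was 0.0535). Over all genes 3.74% passed limma and 6.57% with the block, so 0 of 8 is near the share of all genes. The neighbours were looked at after the changes of the Rtp genes were known.

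**Figure D3:**
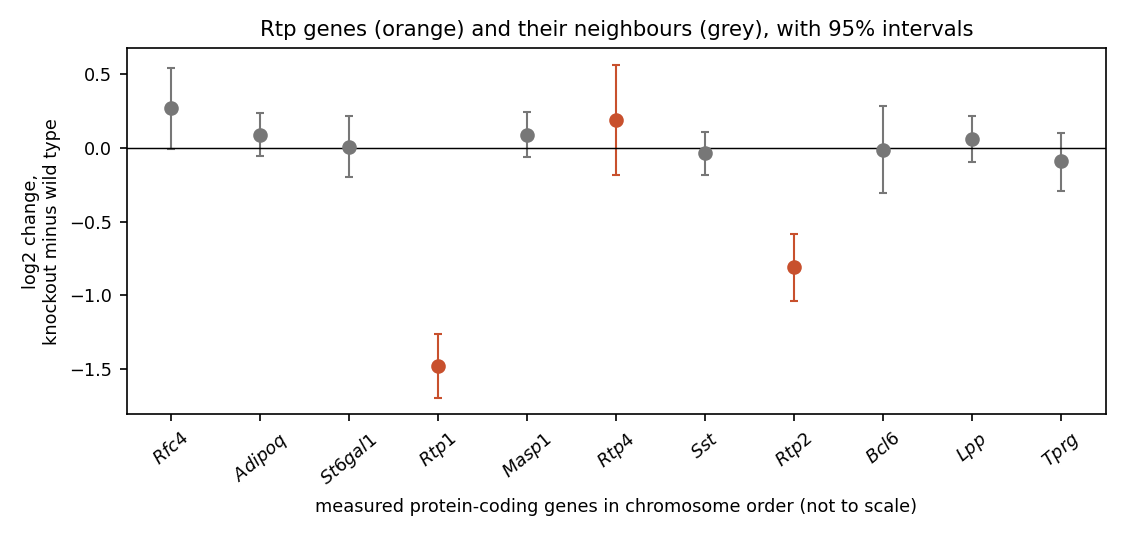
Log2 change (knockout minus wild type, with 95% intervals from limma) of the Rtp genes (orange) and 8 measured protein-coding neighbours (grey), in chromosome order and not to scale. Rtp1 at -1.48 and Rtp2 at -0.81 lie below 0, and the neighbours lie between -0.09 and 0.27.

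Reference promoter windows (250 bases before to 50 after the start site, RefSeq, GRCm38.p6) were at hand for 3 of the 10 genes: Rtp2, Reep1 and Gfy. The windows of Rtp2, which fell, and of Reep1, which did not pass, are shown to set the sequence of a gene that was lower beside that of one that was not called. Capitals mark the palindrome CCCNNGGG, the short core bound by Ebf factors, which are known regulators of olfactory neuron genes.
Rtp2, chr16:23930745-23931044, minus strand: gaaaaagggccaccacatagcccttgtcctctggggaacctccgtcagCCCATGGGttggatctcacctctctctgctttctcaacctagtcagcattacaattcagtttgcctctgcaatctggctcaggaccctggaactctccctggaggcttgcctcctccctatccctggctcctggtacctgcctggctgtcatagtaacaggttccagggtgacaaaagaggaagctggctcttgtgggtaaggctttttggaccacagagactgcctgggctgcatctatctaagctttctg
Reep1, chr6:71707431-71707730, plus strand: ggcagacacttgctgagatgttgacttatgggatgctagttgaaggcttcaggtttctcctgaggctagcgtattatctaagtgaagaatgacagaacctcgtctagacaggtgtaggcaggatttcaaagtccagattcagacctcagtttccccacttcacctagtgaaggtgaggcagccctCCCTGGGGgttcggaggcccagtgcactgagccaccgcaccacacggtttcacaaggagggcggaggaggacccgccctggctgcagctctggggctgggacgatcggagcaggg
Both windows held 1 match, and 13.7% of all 32851 reference windows of this length hold at least 1. The longer form of the Ebf palindrome, with 1 more fixed base at each end, was in neither of these 2 windows but was found in that of Gfy, against 0.904% of all windows. Neither window held TAATTA (a homeodomain core, 5.29% of windows), TGACGTCA (the cyclic AMP response element, 1.79%) or TGATGCAA (the composite element of C/EBP and ATF factors, 0.895%), searched on both strands. These matches describe letters in the windows only.

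The 6 Reep genes showed no change that passed the test. Their log2 changes ran from -0.05 to 0.19, and their 95% intervals together spanned -0.27 to 0.35, that is, ratios of knockout to wild type between 0.832 and 1.28. One gene, Reep4, was at an unadjusted p under 0.05, and none passed with the replicate number as a block (lowest adjusted p = 0.178 by limma with the block, which passed 6.57% of all genes).

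Reep1 stood at 10.07, 9.87 and 9.85 in the knockout, and at 10.10, 9.91 and 9.92 in the wild type. In both genotypes the first array was the highest, and the groups overlapped. The log2 change was -0.05 (95% interval -0.24 to 0.14), which does not overlap the interval of Rtp2 (-1.04 to -0.58). Reep2, known from neurons and as a helper of taste receptors, was 9.01, 9.00 and 9.13 in the knockout against 9.04, 8.98 and 9.14 in the wild type. Its values were nearly the same in the genotypes, array by array, with an interval of -0.16 to 0.15.

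Reep3 and Reep4 are known to keep ER membrane away from chromosomes during cell division. Reep3 stood at 11.20, 11.23 and 11.11 in the knockout, and at 11.21, 11.15 and 11.06 in the wild type, which gave a change of 0.04 (95% interval -0.11 to 0.19). A second, dimmer probe set of Reep3 read 7.64, 7.53 and 7.67 in the knockout against 7.52, 7.62 and 7.56 in the wild type, also with overlap. Reep4 was the only Reep gene whose groups were apart. It stood at 10.31, 10.12 and 10.12 in the knockout, and at 9.93, 10.02 and 10.02 in the wild type. The log2 change of 0.19 (SE 0.07, adjusted p = 0.224 by limma) did not pass, and 10.8% of all genes had every knockout array above every wild-type array.

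Reep5 and Reep6 belong to the branch of the family that shapes tubular ER, and Reep6 is known for its role in rod photoreceptors. Reep5 was 10.44, 10.42 and 10.39 in the knockout against 10.41, 10.34 and 10.21 in the wild type, with a difference of 0.10 (SE 0.07, adjusted p = 0.562 by limma). Reep6 was 11.57, 11.72 and 11.35 in the knockout against 11.62, 11.68 and 11.47 in the wild type, at -0.04 (95% interval -0.27 to 0.18). Reep6 was highest in the second array and lowest in the third in each genotype, and the groups overlapped for both genes.

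Among other genes reported to act on the surface level or signalling of odorant receptors, 1 of 7 measured fell and none rose. Ric8b, a chaperone and exchange factor of the olfactory G protein, stood at 10.33, 10.36 and 10.16 in the knockout, and at 11.55, 11.37 and 11.19 in the wild type. The knockout arrays were all below the wild-type arrays, and the log2 change was -1.09 (SE 0.10, adjusted p = 0.000676 by limma). Against the marker mean, Ric8b lost less by 0.45 (95% interval 0.18 to 0.71, exact permutation p = 0.1). Of all genes, 99.6% passed the ordinary fit against this mean, so the interval does not set Ric8b apart from them. Rtp3, a liver member of the Rtp family, was at -0.14 (SE 0.07, adjusted p = 0.33 by limma). A filter on dim genes at the 30th percentile removed Rtp3 and left 6 measured genes in this list. The heat shock protein Hspa8 (-0.07), the muscarinic receptor Chrm3 (-0.08) and the ER chaperones Hspa5 (-0.17), Canx (-0.07) and Calr (-0.06) did not pass. All 7 changes lay below 0, with a median of -0.08, against 0.01 over all genes. Apart from that of Ric8b, each 95% interval held 0. One passing gene of 7 is 14.3%, against 3.24% of all genes lower by limma.

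Among genes for the general machinery of ER shape and export, 1 passed. Of 12 measured ER-shaping proteins 0 passed limma (1 at an unadjusted p under 0.05; 0 with the replicate block), with changes from -0.28 for the reticulon Rtn1 to 0.21 for Ckap4 and a median of 0.01. The atlastins Atl1 and Atl3, which fuse ER tubules, were at 0.00 and 0.12. Of 24 genes of the COPII coat and its cargo receptors, which carry proteins out of the ER, 1 fell and none rose, with a median of 0.04. Sar1a and Sar1b, the small GTPases that start the coat, were at 0.07 and -0.01. The gene that fell was Cnih2, a cornichon cargo receptor known for AMPA-type glutamate receptors.

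Cnih2 stood at 9.95, 10.11 and 10.04 in the knockout, and at 10.32, 10.34 and 10.33 in the wild type. The groups did not overlap, and the log2 change was -0.29 (SE 0.06, adjusted p = 0.0372 by limma). This call was kept only without the second knockout array among the fits with 1 array left out (highest adjusted p = 0.137). It was also lost after median centring of the arrays (adjusted p = 0.0591). One passing gene of 24 is 4.17%, near the 3.74% of all genes.

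**Figure D4:**
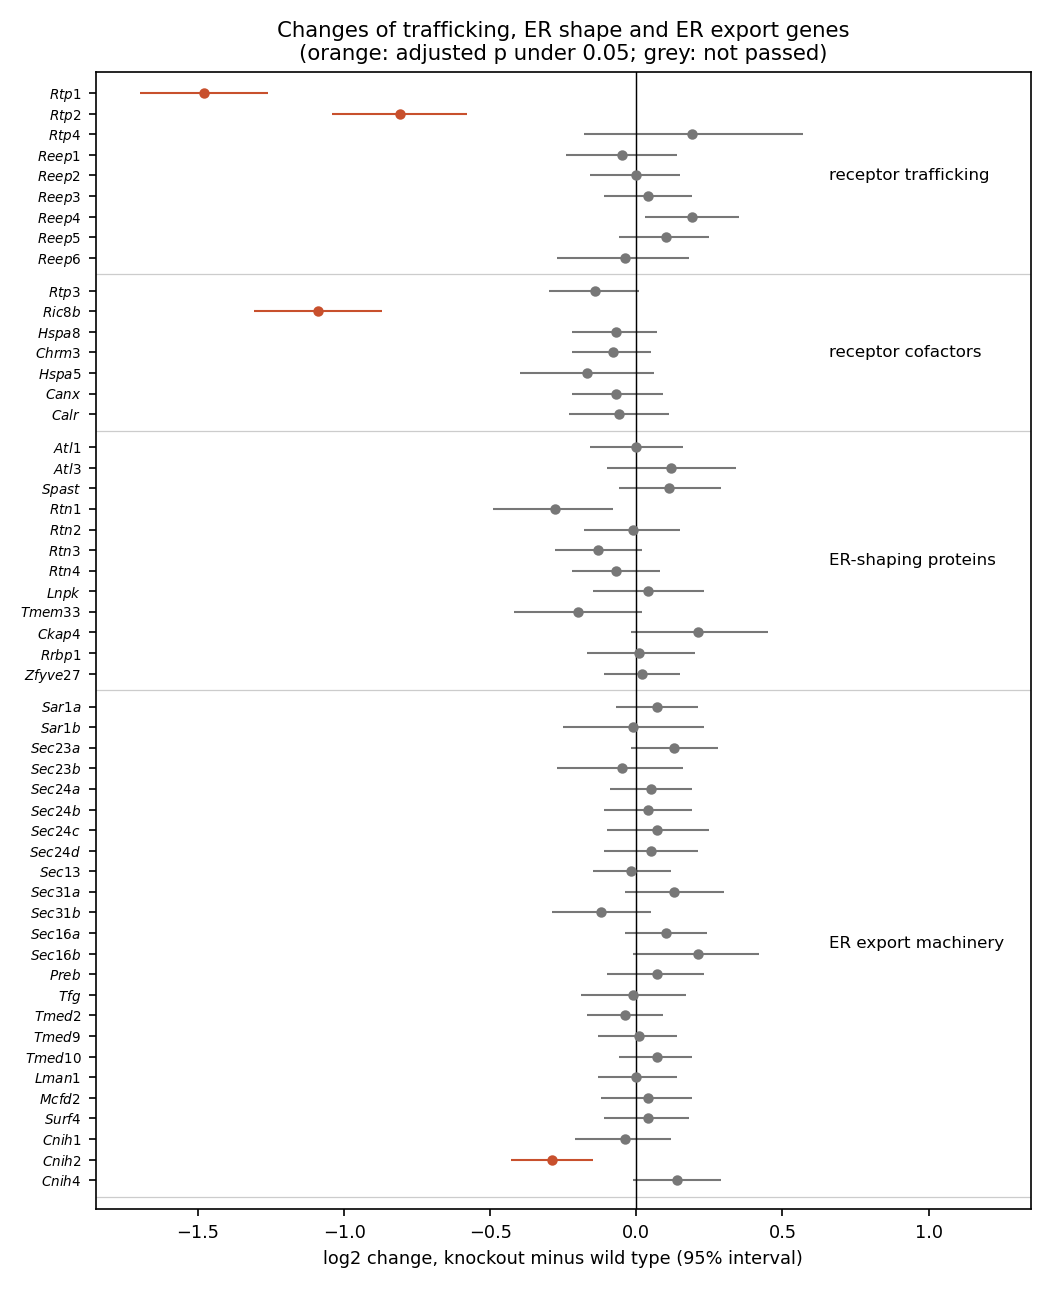
Log2 change (knockout minus wild type, points) with 95% intervals (lines) from limma for the 9 trafficking genes, 7 other receptor cofactors, 12 ER-shaping proteins and 24 ER export genes. Orange marks the genes with an adjusted p under 0.05, which are Rtp1 (-1.48), Rtp2 (-0.81), Ric8b (-1.09) and Cnih2 (-0.29).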

How the data were processed

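RNA of 6 samples was measured on 1-colour Affymetrix whole-transcript arrays. Trizol and RNeasy columns gave the RNA, the Ambion WT Expression Kit the cDNA, and biotin the label, per the labels' protocols. The submitters' processing notes name RMA, affy and limma. The deposited values were taken as log2 levels, since they ran from 4.50 to 14.67; the log base is not given in the sources used here. RMA, as generally defined, equalises the arrays' distributions, which hides any shift common to most transcripts. No other samples' columns were present (0).

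Of 34760 rows, 21640 had 1 gene symbol in GEO's platform annotation, 1321 several and 11799 none. The row of the highest mean was taken per gene, giving 19937 genes, with no filter on dim ones. Knockout and wild type were compared by limma 3.58.1 in R 4.3.3 (lmFit and eBayes, 2-sided, Benjamini-Hochberg over all genes, threshold 0.05). Intervals are at 95%. The labels call the samples biological replicates. The number of arrays limits the precision. The moderated fit relative to the marker mean gave p-values that were too small, because all genes share the subtracted mean. Intervals from an ordinary fit per gene, added after seeing this, and exact permutation tests are printed instead. The ordinary fit uses the same subtracted mean, does not remove its effect, and passed 99.6% of all genes. Its interval is not always the wider: for Rtp2 its SE was 0.05, against 0.14 in the moderated fit.

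Members, lists and tests were chosen with earlier results of these data known. Named genes were all members, Atf5, Omp, Gnal, the first 2 measured and up to 4 passing genes of each pathway list, and the 3 genes most like Rtp1 and Rtp2; others were named after their values were seen. Deviations from the group mean correlated at 0.295, 0.122 and 0.234 between arrays numbered 1, 2 and 3. Between arrays of unlike number they correlated at -0.259 to 0.029. The labels do not say that the numbers pair the samples. Correlations of deviations from a mean of 3 arrays cannot settle whether they do. The main fit and the permutation tests treat the samples as unpaired. The block is given where it changed a call. On simulated data for this comparison (19937 genes), the fit called 56 of 80 genes given a log2 change of 0.5, and 80 of 80 given a change of 1. It called 39 of 40 given a change of 2, and 7 of its 182 calls were false. The simulated noise was independent between genes, which real arrays need not be.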

Additional observations from a re-analysis of the deposited data

How the results depend on the processing

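The alternatives were the replicate number as a block, quantile normalization, median centring, filters on dim genes at the 30th percentile or the median, the mean of a gene's probe sets, a trended and robust prior, and each array left out. Under all of them Rtp1 and Rtp2 passed and no Reep gene or Rtp4 did, so the count of passing trafficking genes was 2 throughout. The receptor cofactor count was 1 and the ER-shaping count 0 throughout. The ER export count was 0 after median centring and 0 to 1 with 1 array left out, through Cnih2. The interferon count was 1 with the replicate block, through Ifit1; the block, or pairing of the numbers, changed no other call of a gene or list in this text except that it passed 6 immature neuron genes in place of 4, 3 enamel genes in place of 2, 2 muscle genes and 1 sustentacular gene in place of 0. The unmoderated fit relative to the marker mean passed 8 trafficking genes, as did the moderated one.

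Of 341 comparisons for 27 named genes, 319 kept direction and call, 6 lost the call (Cnih2), 1 gained it (Ifit1) and 15 changed sign; none of those that changed sign had passed. The genes that changed sign were these, with the range over the fits that leave out 1 array. Rtp4 ran from -0.02 (knockout replicate 2 out) to 0.34, Reep1 from -0.12 to 0.02 (wild-type replicate 1 out), Reep2 from -0.04 to 0.04, Reep3 from -0.00 to 0.07, and Reep6 from -0.13 to 0.05. Atl1 ran from -0.04 to 0.06 and Sar1b from -0.10 to 0.09. Reep2 was at 0.00 after median centring and Atl1 at -0.01 after quantile normalization. These genes lie near 0; the cause was not tested.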
